A study of Homo sapiens with 112 samples.

Results

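The inhibitors of cyclin-dependent kinases and the D-type cyclins were followed as a set of 10 genes, namely CDKN1A, CDKN1B, CDKN1C, CDKN2A, CDKN2B, CDKN2C, CDKN2D, CCND1, CCND2 and CCND3, out of 58684 gene symbols in the deposited count table. Their rows were taken by symbol, and every member was kept whatever its values. The set itself was chosen with earlier results of these data known. Of the 10 members, 9 passed the filter on low counts (10 reads or more in 4 or more libraries) in VCaP and the same number in LAPC4. CCND2 failed it in both lines.

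Cells leave the G1 phase when D-type cyclins bind CDK4 or CDK6 and start the phosphorylation of the retinoblastoma protein, which frees E2F factors. The INK4 proteins (CDKN2A to CDKN2D) bind CDK4 and CDK6 and keep the D-type cyclins off them, while the CIP/KIP proteins (CDKN1A to CDKN1C) bind cyclin-CDK complexes more widely and can also help to assemble cyclin D with its kinase. In prostate cancer cells androgen is known to drive growth at low levels and to slow it at higher ones, and CDK inhibitors and cyclin D1 have been studied in both settings.

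RNA sequencing had been carried out on VCaP, a line from a vertebral metastasis of prostate cancer with an ERG fusion, and on LAPC4, a line from a lymph node metastasis. All groups, the controls included, had been starved of androgen for 2 days in charcoal-stripped serum, so that DMSO marks androgen-starved cells. Cells then received DMSO, 1 nM R1881 (a synthetic androgen), or 1 nM R1881 with darolutamide, an antiandrogen drug, at a low dose of 500 nM or a high dose of 2 µM. They were harvested after 8 or 22 h. The comparisons ask how androgen changes the members and how far darolutamide changes them back. In VCaP there were 10 DMSO libraries at 8 h and 8 at 22 h, 10 and 9 with R1881, 4 and 4 with 500 nM darolutamide, and 5 and 5 with 2 µM. In LAPC4 there were 10 and 7 DMSO libraries, 10 and 10 with R1881, and 5 in each darolutamide group. Each line stands for 1 established cell line, and a difference between them describes these lines.

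The libraries held between 12188455 and 25201678 counted reads. The labels of the lines were checked against marker genes. Levels are given as CPM, read counts scaled to a common library size. ERG ran from 129 to 1140 CPM in VCaP and had at most 1 read in LAPC4, and the luminal markers KRT8, KRT18, EPCAM and HOXB13 had at least 2222 reads in every library. The androgen targets KLK3 and FKBP5 rose with R1881 at 22 h by 3.44 and 5.49 on the log2 scale in VCaP and by 1.65 and 1.36 in LAPC4. Of the 3 leukocyte markers (PTPRC, CD3E and CD68) none had more than 3 reads in a VCaP library or 7 in a LAPC4 library. Of the 3 basal markers, KRT5 had no read in VCaP, TP63 at most 2 and KRT14 at most 20, and KRT14 rose there with R1881 at 22 h by 2.46 ± 0.45 on the log2 scale. In LAPC4 KRT5 had 6 to 27 reads and KRT14 6 to 21 in every library, and neither basal marker tested passed with R1881. The summed level of the 4 fibroblast markers, most of it from LUM (lumican), moved with treatment in VCaP, from 29.3 to 33.8 CPM with DMSO at 22 h to 0.674 to 1.73 CPM with R1881 and 5.21 to 6.25 CPM with 2 µM darolutamide. COL1A2 had no read in VCaP. In LAPC4 the same sum was 4.07 to 5.55 CPM with DMSO at 22 h, 1.88 to 2.9 CPM with R1881 and 3.25 to 4.89 CPM with 2 µM darolutamide. The summed level of the 3 endothelial markers, of which CDH5 had at most 1 read in VCaP, went from 0.469 to 0.943 CPM with DMSO to 2.16 to 3.59 CPM with R1881 in VCaP at the same time, and from 0.555 to 1.49 CPM to 1.14 to 3.09 CPM in LAPC4. The part of these movements in the results below was not tested. In bulk RNA, fewer cells of a kind and less RNA per cell cannot be told apart.

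Promoter sequence was available from RefSeq (GRCh38.p14) for 7 of the 10 members, in 12 entries. CDKN1C, CCND1 and CCND2 were not matched. CDKN2A, CDKN1A and CDKN2B are shown because they had the largest changes with R1881 in VCaP at 22 h, the first and the last of them as neighbours on chromosome 9, and CDKN1B because its level at 22 h stayed low when darolutamide was added. Each line gives up to 250 bases before an annotated start, read 5′ to 3′ on the gene's strand and trimmed where another transcript's untranslated region begins. Capitals mark the GC box GGGCGG, the CCAAT box CCAAT or the E-box CACGTG, on either strand.

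CDKN1A, chr6:36678464-36678709, plus strand: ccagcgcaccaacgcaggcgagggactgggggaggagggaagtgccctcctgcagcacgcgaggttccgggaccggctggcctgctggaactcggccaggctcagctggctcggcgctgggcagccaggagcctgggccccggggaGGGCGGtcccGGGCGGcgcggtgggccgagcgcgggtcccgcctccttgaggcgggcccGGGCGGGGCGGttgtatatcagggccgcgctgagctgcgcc
CDKN1B, chr12:12717118-12717367, plus strand: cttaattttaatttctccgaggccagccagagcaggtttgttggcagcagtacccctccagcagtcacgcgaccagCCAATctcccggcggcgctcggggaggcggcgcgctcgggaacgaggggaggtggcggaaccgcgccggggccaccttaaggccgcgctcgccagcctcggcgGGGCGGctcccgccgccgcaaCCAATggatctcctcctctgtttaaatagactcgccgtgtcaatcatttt
CDKN2A, upstream start (the transcript of p14ARF), chr9:21995325-21995574, minus strand: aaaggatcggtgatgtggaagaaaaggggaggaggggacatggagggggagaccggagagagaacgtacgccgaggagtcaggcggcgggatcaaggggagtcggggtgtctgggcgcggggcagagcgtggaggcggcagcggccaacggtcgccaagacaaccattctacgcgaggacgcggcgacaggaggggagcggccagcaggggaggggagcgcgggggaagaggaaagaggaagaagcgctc
CDKN2A, downstream start (the transcript of p16INK4a), chr9:21974867-21975107, minus strand: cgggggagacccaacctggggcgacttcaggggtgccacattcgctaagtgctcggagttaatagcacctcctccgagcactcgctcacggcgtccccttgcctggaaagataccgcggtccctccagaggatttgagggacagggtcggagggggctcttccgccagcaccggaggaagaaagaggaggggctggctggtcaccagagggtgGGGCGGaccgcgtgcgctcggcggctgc
CDKN2B, chr9:22009306-22009555, minus strand: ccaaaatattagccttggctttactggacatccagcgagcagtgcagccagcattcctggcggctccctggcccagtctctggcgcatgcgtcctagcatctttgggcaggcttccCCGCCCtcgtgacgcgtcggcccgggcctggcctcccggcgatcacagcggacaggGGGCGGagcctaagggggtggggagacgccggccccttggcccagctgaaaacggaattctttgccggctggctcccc

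The CDKN1A window held 4 GC boxes, the last pair of them overlapping by a single base, and 76.8% of its bases were G or C. The CDKN2B window held 2 GC boxes and the CDKN1B window 1 with 2 CCAAT boxes. The window of the upstream CDKN2A start held none of the 3 motifs, and that of the downstream start held 1 GC box. Over all 35116 promoter entries of the same length, 42.6% held a GC box, 32% a CCAAT box and 6.34% an E-box. A match is a description of letters, and no match says only that these letters were not in this window.

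Levels were compared between genes as CPM per kilobase of merged exons, in DMSO libraries at 22 h. CCND1 stood far above the other members in both lines, at 53 ± 1.47 CPM per kb in VCaP (SD, n = 8) and 34.8 ± 0.699 CPM per kb in LAPC4 (SD, n = 7). In VCaP the next levels were CDKN1B at 8.19, CDKN1A at 6.84 and CDKN2C at 5.25 CPM per kb, each with a range of libraries apart from its neighbour. CDKN2D (1.77), CCND3 (1.75) and CDKN1C (1.28) followed with overlapping ranges, and CDKN2A (0.379) and CDKN2B (0.212) were lowest and overlapped each other.

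In LAPC4 the order changed. CDKN2C came second at 9.56 CPM per kb, ahead of CDKN1B at 5.56 and CDKN2D at 5.23, whose ranges overlapped, and of CCND3 at 3.54. CDKN1A was sixth at 0.897 CPM per kb, followed by CDKN2B at 0.621, and by CDKN1C (0.392) and CDKN2A (0.231), which overlapped. CCND2 had 3 reads in all over 55 VCaP libraries and 21 reads over 57 LAPC4 libraries, with at most 1 and 3 reads in any library. A total of 3 reads over all VCaP libraries corresponds to 0.00271 CPM before scaling factors, and this level allows no statement on treatment.

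**Figure D1:**
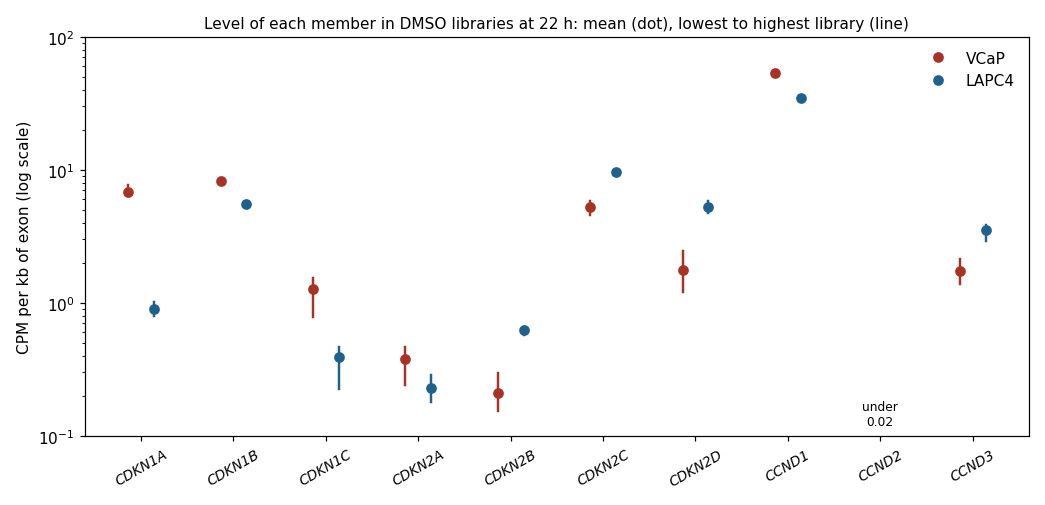
Level of each member in DMSO libraries at 22 h, as CPM per kilobase of exon on a log axis, for VCaP (red, n = 8) and LAPC4 (blue, n = 7). Dots are means and lines run from the lowest to the highest library, and CCND2 lies below the axis. CCND1 is highest in both lines, and CDKN1A is higher in VCaP (6.84) than in LAPC4 (0.897).

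In androgen-starved cells, 9 of 9 tested members differed between the lines at 22 h in a joint edgeR fit of all libraries, against 85.5% of the 16578 genes tested, and 9 of 9 did at 8 h (87.9%). CDKN1A differed most, with 18.9, 20.3 and 23.1 CPM (lowest, median, highest) in VCaP and 2.4, 2.69 and 3.03 CPM in LAPC4, a 7.6-fold difference (log2 fold change 2.93 ± 0.086, SE). CDKN1C was 3.24-fold higher in VCaP, CDKN2A 1.63-fold, CCND1 1.52-fold and CDKN1B 1.47-fold. CDKN2D was 2.98-fold lower in VCaP, CDKN2B 2.9-fold, CCND3 2.04-fold and CDKN2C 1.82-fold. The lines were put on 1 scale by factors over all libraries, which ran from 0.863 to 0.949 in VCaP and from 1.06 to 1.14 in LAPC4. With library totals alone, a setting added after the data were seen, CDKN1B at 8 h differed by 0.03 (adjusted p = 0.298) in place of 0.27. At 22 h that setting kept every direction and call, with 0.43 in place of 0.70 for CDKN2A, 0.33 in place of 0.61 for CCND1 and 0.29 in place of 0.56 for CDKN1B.

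In VCaP treated with R1881, all 9 tested members passed the test (adjusted p under 0.05) at 8 h and at 22 h, where 66.9% and 77.4% of 19266 genes did. At 8 h 7 of them rose (32.8% of all genes did) and 2 fell (34.1%), and at 22 h 6 rose (37.4%) and 3 fell (40%). With upper quartile scaling 39% of all calls at 8 h were rises, in place of 49.1%. The members' median absolute log2 fold change was 0.73 at 8 h and 1.10 at 22 h, beside 0.33 and 0.53 over all tested genes. At 22 h 6 members were past 1 on the log2 scale, as were 23.9% of all genes, and the DMSO and R1881 libraries did not overlap for 8 of the 9, as for 46.8% of all genes.

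**Figure D2:**
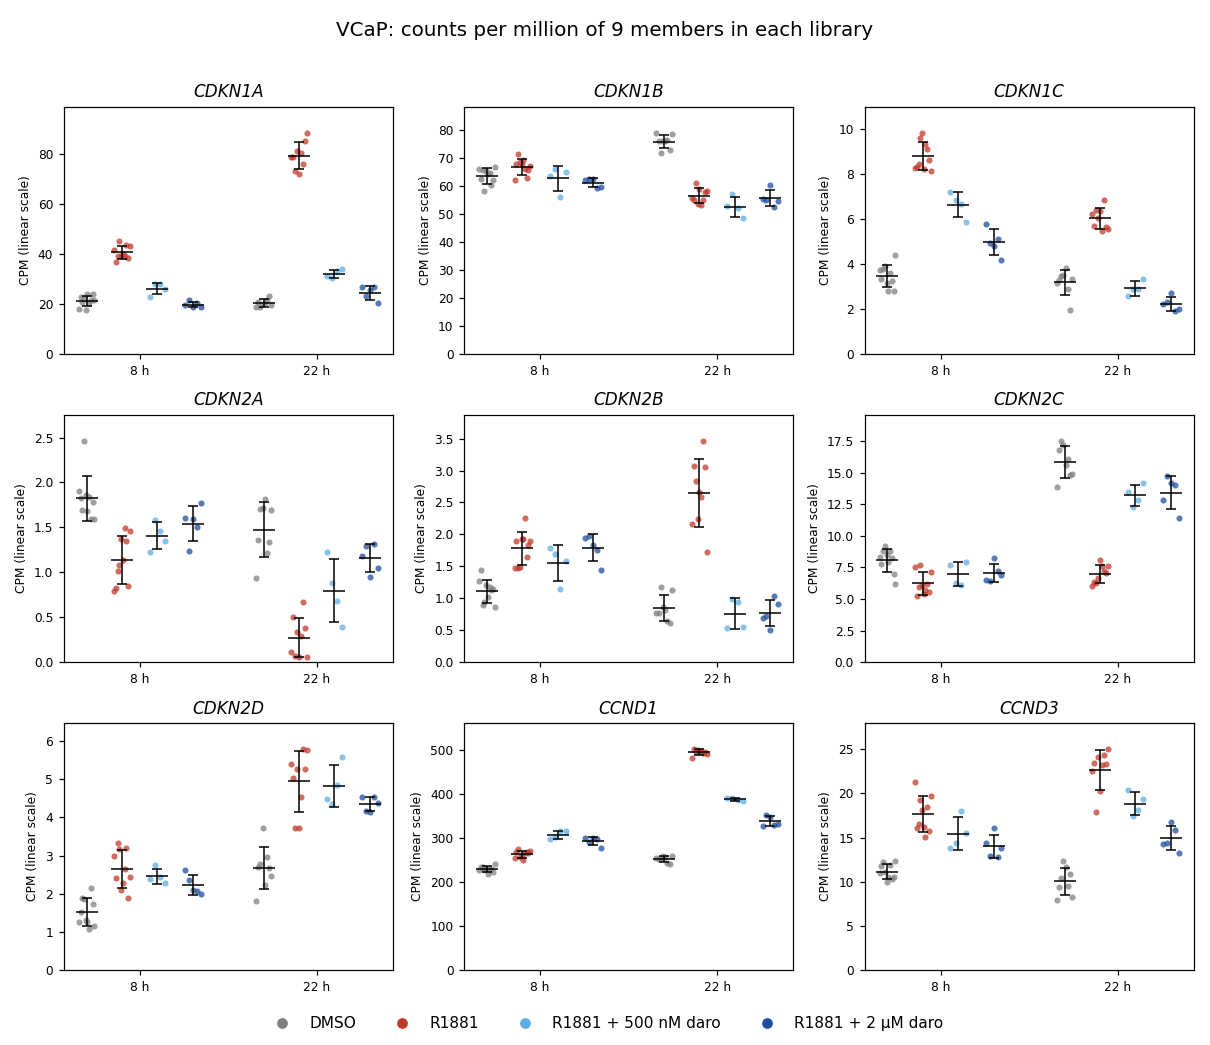
CPM of the 9 expressed members in every VCaP library (linear axes from 0) by treatment and time. Each dot is a library, and the black bar gives the mean ± SD. CDKN1A reaches 72.1 to 88.6 CPM with R1881 at 22 h and CDKN2A falls to 0.0524 to 0.665 CPM, while DMSO libraries sit at 18.9 to 23.1 and 0.936 to 1.82 CPM.

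Among the CIP/KIP genes, CDKN1A (chromosome 6, 36676460 to 36687337, plus strand), which encodes p21 and is a textbook p53 target, showed the highest rise of the members at 22 h. It had 17.5, 21.5 and 24 CPM (lowest, median, highest) with DMSO at 8 h and 36.9, 39.8 and 45.2 CPM with R1881. At 22 h it had 18.9, 20.3 and 23.1 CPM with DMSO and 72.1, 79 and 88.6 CPM with R1881. No R1881 library overlapped a DMSO library at either time. The rise was 2.01-fold at 8 h (log2 fold change 1.00 ± 0.052, SE) and 4.09-fold at 22 h (2.03 ± 0.058, adjusted p = 5.83e-37, edgeR quasi-likelihood test), and the effect at 22 h was 1.03 ± 0.077 above that at 8 h (adjusted p = 2.11e-17).

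CDKN1C (chromosome 11, 2883213 to 2885775, minus strand), the imprinted gene of p57, rose as well but had its larger effect early. It had 2.8, 3.46 and 4.38 CPM with DMSO at 8 h and 8.13, 8.52 and 9.81 CPM with R1881. At 22 h it had 1.95, 3.31 and 3.81 CPM with DMSO and 5.46, 6.06 and 6.85 CPM with R1881. The groups stayed apart at both times. The rise was 2.65-fold at 8 h (1.40 ± 0.077) and 2-fold at 22 h (1.00 ± 0.089), and the effect was lower at 22 h by -0.40 ± 0.12 (adjusted p = 0.00273). With control replicates 6 and above alone this difference was -0.23 (adjusted p = 0.37).

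CDKN1B (chromosome 12, 12685498 to 12722369, plus strand), which encodes p27, moved little at 8 h and fell at 22 h. DMSO libraries at 8 h had 58.1, 64.5 and 66.9 CPM and R1881 libraries 62.2, 67.5 and 71.3 CPM, and the groups overlapped. The 8 h log2 fold change of 0.14 ± 0.032 passed the test, but it was 0.05 (adjusted p = 0.165) with upper quartile scaling and 0.09 (adjusted p = 0.136) with control replicates 6 and above. At 22 h DMSO libraries had 71.9, 76 and 78.9 CPM and R1881 libraries 53.2, 55.6 and 61.2 CPM, with no overlap, a fall of 1.27-fold (-0.35 ± 0.035, adjusted p = 3.06e-13). The difference between the times was -0.49 ± 0.047 (adjusted p = 2.41e-13).

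The INK4 genes went in opposite directions. CDKN2A (chromosome 9, 21967752 to 21995301, minus strand) had the largest change of all members at 22 h, a fall of 5.01-fold. Its counts join the transcripts of p16INK4a, a CDK4 and CDK6 inhibitor, and p14ARF, which stabilizes p53 through MDM2, and the gene table does not separate them. It had 1.59, 1.8 and 2.46 CPM with DMSO at 8 h and 0.788, 1.11 and 1.49 CPM with R1881. At 22 h it had 0.936, 1.52 and 1.82 CPM with DMSO and 0.0524, 0.288 and 0.665 CPM with R1881, which came from 1 to 10 reads a library. The groups did not overlap at either time. The log2 fold change was -0.59 ± 0.16 at 8 h and -2.32 ± 0.24 at 22 h (adjusted p = 5.98e-13), and the effect differed between the times by -1.73 ± 0.29. With control replicates 6 and above, the 8 h value was -0.37 (adjusted p = 0.125).

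CDKN2B (chromosome 9, 22002903 to 22009305, minus strand), the neighbouring gene that encodes p15INK4b and a known target of TGF-beta signaling, rose. It had 0.866, 1.14 and 1.45 CPM with DMSO at 8 h and 1.47, 1.86 and 2.26 CPM with R1881. After 22 h it had 0.614, 0.796 and 1.18 CPM with DMSO and 1.73, 2.66 and 3.46 CPM with R1881. All R1881 libraries were above all DMSO libraries at both times. The rise was 1.68-fold at 8 h (0.75 ± 0.13) and 3.25-fold at 22 h (1.70 ± 0.14, adjusted p = 5.11e-16), a difference between the times of 0.95 ± 0.20. CDKN2A and CDKN2B are paralogs, and the antisense gene CDKN2B-AS1, which overlaps both on the other strand, had at most 4 reads in any library of either line.

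CDKN2C (chromosome 1, 50960745 to 50974634, plus strand), the gene of p18INK4c, fell. It had 6.16, 8.31 and 9.18 CPM with DMSO and 5.23, 6.01 and 7.68 CPM with R1881 at 8 h. At 22 h DMSO libraries had risen to 13.9, 15.9 and 17.5 CPM while R1881 libraries were at 6.03, 7.02 and 8.1 CPM. The groups overlapped at 8 h and were apart at 22 h. The fall was 1.22-fold at 8 h (-0.29 ± 0.072) and 2.15-fold at 22 h (-1.10 ± 0.075, adjusted p = 1.09e-19). In DMSO alone CDKN2C was 1.96-fold higher at 22 h than at 8 h (0.97 ± 0.072), so that the difference at 22 h was between DMSO libraries that rose and R1881 libraries near the 8 h levels.

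CDKN2D (chromosome 19, 10566460 to 10569059, minus strand), the gene of p19INK4d, rose by similar amounts at both times. It had 1.09, 1.41 and 2.15 CPM with DMSO and 1.89, 2.54 and 3.34 CPM with R1881 at 8 h, and 1.82, 2.69 and 3.71 CPM against 3.71, 5.25 and 5.78 CPM at 22 h. The lowest R1881 libraries met the highest DMSO libraries at both times. The rise was 1.82-fold at 8 h (0.86 ± 0.12) and 1.98-fold at 22 h (0.98 ± 0.11). CDKN2D was the member whose effects at the times did not differ by the test (0.12, 95% interval -0.20 to 0.45), while 8 of 9 did, as did 60.4% of all genes.

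Both expressed D-type cyclins rose. CCND1 (chromosome 11, 69641156 to 69654474, plus strand), which encodes cyclin D1, had 218, 229 and 241 CPM with DMSO at 8 h and 249, 265 and 275 CPM with R1881. After 22 h it had 240, 254 and 260 CPM with DMSO and 480, 495 and 501 CPM with R1881. No libraries overlapped at either time, and the spread within groups was narrow. The rise was 1.21-fold at 8 h (0.27 ± 0.021) and 2.07-fold at 22 h (1.05 ± 0.023, adjusted p = 1.88e-42).

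CCND3 (chromosome 6, 41934934 to 42050357, minus strand), which encodes cyclin D3, had 9.96, 11.1 and 12.3 CPM with DMSO at 8 h and 15.1, 17.3 and 21.3 CPM with R1881. At 22 h it had 7.98, 9.97 and 12.3 CPM with DMSO and 17.9, 23.3 and 25 CPM with R1881. The groups were apart at both times. The rise was 1.66-fold at 8 h (0.73 ± 0.069) and 2.39-fold at 22 h (1.26 ± 0.076, adjusted p = 8.99e-22).

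The size of the R1881 effects also depended on how the counts were scaled. With upper quartile factors in place of TMM factors the median of all VCaP genes at 22 h moved by -0.12 on the log2 scale. Each of the 9 members kept its direction and its call at 22 h under that scaling.

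**Figure D3:**
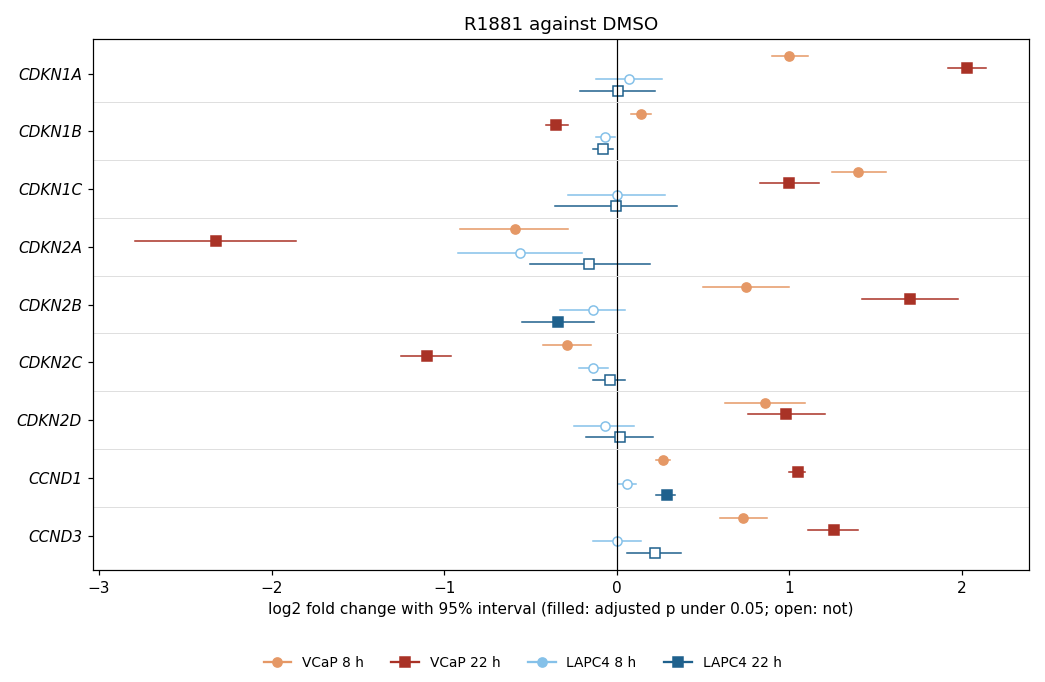
Log2 fold change of R1881 against DMSO with its 95% interval for 9 members in VCaP (orange circles 8 h, red squares 22 h) and LAPC4 (light blue circles 8 h, dark blue squares 22 h). Filled symbols passed the test. In VCaP the values run from -2.32 (CDKN2A, 22 h) to 2.03 (CDKN1A, 22 h), and in LAPC4 only CCND1 and CDKN2B at 22 h are filled.

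Darolutamide was then compared with R1881 in VCaP. These comparisons share their R1881 libraries with the comparisons above, so the values are given side by side and their opposite signs are not independent of each other. At 22 h with 2 µM darolutamide, 7 of 9 members passed the test against R1881 (66.9% of all genes did), 2 higher (36.1%) and 5 lower (30.8%), and the groups did not overlap for 7 (44%). At 8 h 5 of 9 passed (52.1%), 4 of them lower (26.2%). With 500 nM, 8 of 9 passed at 22 h (53%) and 4 at 8 h (30.6%), 3 of them lower (15.7%). At 8 h rises were 49.8% of all calls with 2 µM and 48.7% with 500 nM, and 62% and 62.3% with upper quartile scaling.

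CDKN1A had 27, 23.3, 25.5, 26.8 and 20.4 CPM in the 5 libraries with 2 µM darolutamide at 22 h and 31.3, 30.6, 33.1 and 34 CPM in the 4 with 500 nM. All of them were below the lowest R1881 library (72.1 CPM), and the doses did not overlap. The change against R1881 was -1.71 ± 0.067 with 2 µM and -1.33 ± 0.071 with 500 nM, and the direct comparison of the doses gave -0.38 ± 0.077 (adjusted p = 0.000128). At 8 h the values against R1881 were -1.09 ± 0.066 and -0.65 ± 0.070.

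CDKN1C had 2.21, 2.32, 2.7, 1.93 and 2.01 CPM with 2 µM at 22 h and 2.56, 2.87, 2.87 and 3.34 CPM with 500 nM, against at least 5.46 CPM with R1881. The change was -1.44 ± 0.11 and -1.07 ± 0.11. The dose difference at 22 h was -0.37 ± 0.13 (adjusted p = 0.0382), and its adjusted p was between 0.0538 and 0.128 when any of 7 libraries (2 µM replicates 1, 2, 4 or 5, or 500 nM replicates 2, 3 or 4) was left out. The call was also lost with DESeq2 (adjusted p = 0.0693), no filter on low counts (adjusted p = 0.107) and only the groups compared (adjusted p = 0.069). The replicate block (adjusted p = 0.172) and control replicates 6 and above (adjusted p = 0.0771) gave no call either. At 8 h CDKN1C had 5.78, 4.95, 4.81, 5.12 and 4.19 CPM with 2 µM and 7.18, 6.85, 6.68 and 5.84 CPM with 500 nM, with no overlap and a dose difference of -0.45 ± 0.11.

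CDKN1B stayed near its R1881 level at 22 h. It had 55.4, 55.1, 60.5, 52.6 and 54.6 CPM with 2 µM at 22 h and 52.8, 57.2, 52.1 and 48.5 CPM with 500 nM. The 2 µM libraries lay within the R1881 range of 53.2 to 61.2 CPM or just under it and far below the DMSO range of 71.9 to 78.9 CPM. The log2 fold change of 2 µM against R1881 was -0.04 (95% interval -0.12 to 0.04) and became -0.10 (adjusted p = 0.0423) without 2 µM replicate 3. Against DMSO it was -0.39 ± 0.041 (adjusted p = 6.28e-12). With 500 nM the value against R1881 was -0.12 ± 0.044 (adjusted p = 0.0133), and it was -0.09 (adjusted p = 0.112) without replicate 4 of that dose. This call was also lost with only the groups compared (adjusted p = 0.0524) and with the replicate block (adjusted p = 0.183). Control replicates 1 to 5 (adjusted p = 0.0748) and 6 and above (adjusted p = 0.0829) gave no call either. At 8 h, where CDKN1B had 62.1, 62.5, 62.6, 59.2 and 59.6 CPM with 2 µM, the value against R1881 was -0.18 ± 0.039 with overlapping groups. With 500 nM at 8 h it was -0.11 (adjusted p = 0.0419). That call was lost with DESeq2 (adjusted p = 0.0582), upper quartile factors (-0.06, adjusted p = 0.266) and either subset of controls (adjusted p = 0.0908 and 0.178).

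CDKN2A had 1.18, 1.29, 0.949, 1.32 and 1.05 CPM with 2 µM at 22 h, all above the highest R1881 library (0.665 CPM). With 500 nM it had 1.23, 0.882, 0.678 and 0.39 CPM, the lowest of which fell within the R1881 range. The change against R1881 was 2.05 ± 0.26 and 1.50 ± 0.31. The doses were not told apart (0.55, 95% interval 0.03 to 1.07, adjusted p = 0.155). At 8 h the 2 µM value was 0.38 (95% interval -0.01 to 0.76) and did not pass the test (adjusted p = 0.103), but the call depended on the setting. It passed with control replicates 1 to 5 (0.58, adjusted p = 0.0355) and with the replicate block (0.60, adjusted p = 0.021). Upper quartile factors (0.45, adjusted p = 0.0466) and a fit of only the groups compared (0.41, adjusted p = 0.0495) gave a call as well.

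CDKN2B had 0.688, 0.73, 0.5, 1.03 and 0.903 CPM with 2 µM at 22 h and 0.533, 0.992, 0.938 and 0.557 CPM with 500 nM. Both doses were below all R1881 libraries and within or just below the DMSO range. The change against R1881 was -1.78 ± 0.16 with 2 µM and -1.81 ± 0.18 with 500 nM. At 8 h it had 1.95, 1.97, 1.84, 1.76 and 1.45 CPM with 2 µM, inside the R1881 range of 1.47 to 2.26 CPM but for its lowest library. The 8 h value against R1881 was -0.04 (95% interval -0.32 to 0.24), and against DMSO CDKN2B was 1.64-fold higher (0.71 ± 0.15, adjusted p = 0.000189).

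CDKN2C had 12.8, 14.7, 14.2, 14 and 11.4 CPM with 2 µM and 13.5, 12.3, 12.8 and 14.2 CPM with 500 nM at 22 h. All were above the highest R1881 library (8.1 CPM). The change against R1881 was 0.93 ± 0.084 and 0.89 ± 0.090, and the dose difference was 0.03 (95% interval -0.16 to 0.23). Against DMSO the 2 µM value was -0.17 (95% interval -0.34 to -0.01, adjusted p = 0.0652), and it passed the test when any of 2 µM replicates 2, 3 or 4 was left out (adjusted p between 0.0302 and 0.0486). It also passed with upper quartile factors (-0.26, adjusted p = 0.00706) and with control replicates 1 to 5 (-0.23, adjusted p = 0.0329). The edgeR default filter (adjusted p = 0.0422) and a principal component as covariate (adjusted p = 0.0265) gave a call as well.

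CDKN2D stayed high under darolutamide at 22 h. It had 4.52, 4.17, 4.15, 4.52 and 4.37 CPM with 2 µM at 22 h and 4.48, 4.36, 4.85 and 5.57 CPM with 500 nM, all within the R1881 range of 3.71 to 5.78 CPM and all above the DMSO range. The 2 µM value was -0.20 against R1881 (95% interval -0.44 to 0.03), or -0.32 (adjusted p = 0.0264) with control replicates 6 and above, and 0.78 ± 0.13 against DMSO (adjusted p = 7.23e-07). At 8 h the 2 µM value against R1881 was -0.31 (adjusted p = 0.0503). It passed with control replicates 1 to 5 (-0.37, adjusted p = 0.0431), with a principal component as covariate (-0.32, adjusted p = 0.0323) and without 2 µM replicate 1 (-0.38, adjusted p = 0.0314). Against DMSO at 8 h it was 0.55 (adjusted p = 0.00243), or 0.52 (adjusted p = 0.0667) with the replicate block.

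CCND1 had 328, 353, 348, 329 and 331 CPM with 2 µM at 22 h and 391, 390, 385 and 383 CPM with 500 nM. The groups fell in the order R1881, 500 nM, 2 µM and DMSO with no overlap between any neighbours. The change against R1881 was -0.38 ± 0.028 with 500 nM and -0.57 ± 0.026 with 2 µM, the dose difference was -0.19 ± 0.031 (adjusted p = 3.12e-06), and CCND1 stayed 1.4-fold above DMSO (0.48 ± 0.026).

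At 8 h the direction for CCND1 was the other one. It had 299, 290, 300, 298 and 277 CPM with 2 µM and 298, 301, 315 and 315 CPM with 500 nM, all above the highest R1881 library (275 CPM). The change against R1881 was 0.10 ± 0.025 with 2 µM (adjusted p = 0.000641) and 0.20 ± 0.027 with 500 nM (adjusted p = 1.41e-08). CCND1 was the single member higher with darolutamide than with R1881 by the test at 8 h, at either dose, as were 25.9% of all genes with 2 µM and 14.9% with 500 nM.

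CCND3 had 14.3, 14.4, 16.8, 15.9 and 13.3 CPM with 2 µM at 22 h and 20.4, 17.5, 18.1 and 19.4 CPM with 500 nM. The 2 µM libraries lay between the ranges of DMSO and R1881, and the doses did not overlap. The change was -0.62 ± 0.084 with 2 µM and -0.29 ± 0.089 with 500 nM, the latter -0.20 (adjusted p = 0.107) with control replicates 1 to 5. The dose difference of -0.33 ± 0.10 (adjusted p = 0.0127) had an adjusted p of 0.0564 without 2 µM replicate 5. With 2 µM CCND3 stayed 1.56-fold above DMSO (0.64 ± 0.088).

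In all, 2 µM darolutamide differed from DMSO at 22 h for 6 of 9 members (59% of all genes). CCND1, CCND3, CDKN1A (0.32 ± 0.067) and CDKN2D were higher (30.5% of all genes), and CDKN1B and CDKN1C (-0.44 ± 0.11) were lower (28.5%). Rises were 51.7% of all calls here and 40.2% with upper quartile scaling. For CDKN1C the value with control replicates 6 and above was -0.24 (adjusted p = 0.223). CDKN2A (-0.27, 95% interval -0.68 to 0.13) and CDKN2B (-0.08, 95% interval -0.46 to 0.30) did not pass, and their intervals leave room for differences in either direction. CDKN2C did not pass either, but it did in the other settings given above. At 8 h 5 of 9 differed from DMSO (27.5%), all of them higher (15.4%), namely CCND1, CCND3, CDKN1C, CDKN2B and CDKN2D. Between the doses 4 of 9 differed at 22 h (20.2% of all genes) and 3 at 8 h (17.6%), in each case lower with 2 µM (9.75% and 10% of all genes). Of these, CCND1 at 8 h (-0.10 ± 0.031) lost its call without 500 nM replicate 3 or 4 or 2 µM replicate 5 (adjusted p between 0.0551 and 0.0713). It also lost it with upper quartile factors (adjusted p = 0.0861), no filter on low counts (adjusted p = 0.163) and only the groups compared (adjusted p = 0.116). The replicate block (adjusted p = 0.428) and control replicates 6 and above (adjusted p = 0.074) gave no call either.

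**Figure D4:**
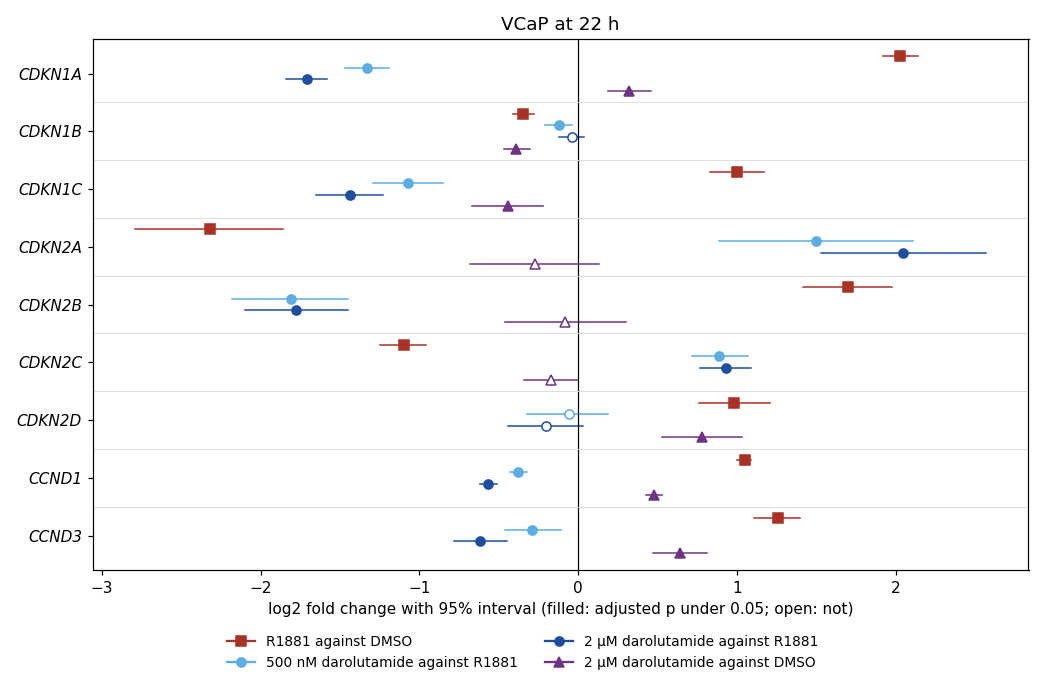
Log2 fold change with its 95% interval for 9 members in VCaP at 22 h, for R1881 against DMSO (red squares), 500 nM (light blue) and 2 µM darolutamide (dark blue) against R1881, and 2 µM darolutamide against DMSO (purple triangles). Filled symbols passed the test. CDKN1B at -0.39 and CDKN2D at 0.78 against DMSO sit close to their R1881 values of -0.35 and 0.98.

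Between 8 and 22 h in androgen-starved VCaP cells 4 of 9 members changed (29.8% of all genes), all upward (15.9%), with CDKN2C at 0.97 and CDKN2D at 0.77 ± 0.13, CDKN1B at 0.25 ± 0.034 and CCND1 at 0.14 ± 0.022. The value for CCND1 was 0.08 (adjusted p = 0.147) with control replicates 6 and above. In LAPC4 3 of 9 changed (22.1%, of which rises were 48.5%, or 69.5% with upper quartile scaling), with CDKN2C down by -0.44 ± 0.048, CCND3 by -0.28 ± 0.080 and CCND1 up by 0.11 ± 0.029. For CCND3 the value was -0.14 (adjusted p = 0.413) with control replicates 1 to 5 and -0.45 (adjusted p = 0.0649) with replicates 6 and above. For CCND1 it was 0.08 (adjusted p = 0.398) with replicates 6 and above. CDKN2C thus went up with time in VCaP and down in LAPC4, from 34.2, 38.3 and 43.1 CPM at 8 h to 27.6, 29.1 and 29.8 CPM at 22 h in the latter.

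The members changed far less in LAPC4, in which fewer genes passed the test as a whole. At 8 h of R1881 none of 9 members passed the edgeR test, as against 2.64% of 18204 genes, with 4 members at an unadjusted p under 0.05 and 0 called by DESeq2. At 22 h 2 of 9 passed (13.3%), CCND1 upward (6.83% of all genes rose) and CDKN2B downward (6.45% fell), and the groups did not overlap for CCND1 alone (3.55% of all genes).

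**Figure D5:**
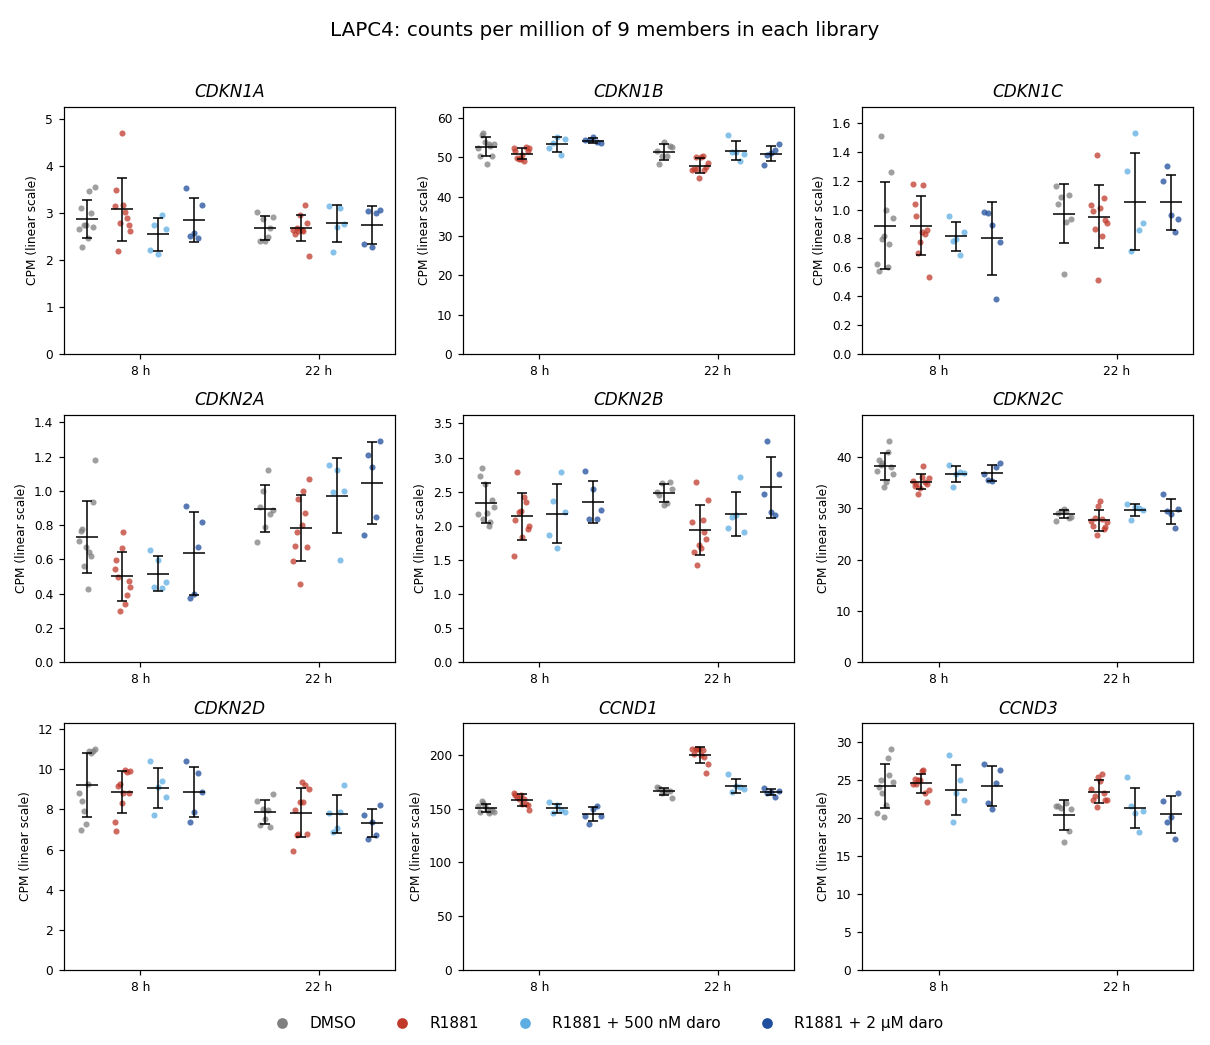
CPM of the 9 expressed members in every LAPC4 library (linear axes from 0) by treatment and time, drawn as for VCaP, each dot a library and the black bar the mean ± SD. CCND1 at 22 h runs from 183 to 205 CPM with R1881 and from 160 to 170 CPM with DMSO, and most other groups overlap.

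CCND1 in LAPC4 had 160, 166 and 170 CPM (lowest, median, highest) with DMSO at 22 h and 183, 203 and 205 CPM with R1881. With 2 µM darolutamide it had 169, 164, 165, 161 and 166 CPM, and with 500 nM 182, 165, 171, 170 and 168 CPM. R1881 libraries were above all others, and the 2 µM libraries lay in the DMSO range. The log2 fold change was 0.29 ± 0.029 for R1881 (adjusted p = 9.37e-12), -0.23 ± 0.032 for 500 nM against R1881 and -0.29 ± 0.032 for 2 µM (adjusted p = 3.53e-10). Against DMSO the 2 µM value was -0.0021 (95% interval -0.07 to 0.06). The R1881 effect at 8 h was 0.06 ± 0.026 and did not pass, and the effect grew by 0.23 ± 0.039 up to 22 h (adjusted p = 4.83e-05), the single member for which the times differed (3.21% of all genes). With control replicates 6 and above alone, and so with fewer libraries, the difference between the times was 0.26 (adjusted p = 0.0536).

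CDKN2B in LAPC4 had 2.31, 2.49 and 2.64 CPM with DMSO at 22 h and 1.43, 1.86 and 2.64 CPM with R1881. With 2 µM darolutamide it had 2.46, 3.24, 2.2, 2.16 and 2.76 CPM. The groups overlapped in each comparison. The log2 fold change was -0.34 ± 0.11 for R1881 (adjusted p = 0.0256) and 0.40 ± 0.12 for 2 µM against R1881 (adjusted p = 0.0203). With control replicates 1 to 5 or 6 and above alone, and so with fewer libraries, the first was -0.35 (adjusted p = 0.207) and -0.36 (adjusted p = 0.338). With no filter on low counts the first was -0.35 (adjusted p = 0.0546). The call of the second was lost without 2 µM replicate 2 (0.30, adjusted p = 0.166) or replicate 5 (0.36, adjusted p = 0.0698). It was also lost in a fit of only the groups compared (adjusted p = 0.103) and with the replicate block (adjusted p = 0.125). The same held with control replicates 1 to 5 (adjusted p = 0.0689) and with replicates 6 and above (adjusted p = 0.102).

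With 2 µM darolutamide against R1881, 2 of 9 members passed in LAPC4 at 22 h (10.5%) and 1 at 8 h (1.54%), which was CCND1 at -0.12 ± 0.032. That call was lost without 2 µM replicate 2 (adjusted p = 0.281) or replicate 5 (adjusted p = 0.0575). With 500 nM CCND1 alone passed at 22 h (5.89%), and none passed at 8 h (0.626%), where 2 members had an unadjusted p under 0.05 and DESeq2 called 0. No member passed between the doses or for 2 µM against DMSO at either time, where 0.0275%, 0.258%, 0.011% and 0.0165% of all genes did. Over these 4 comparisons a single member had an unadjusted p under 0.05, CCND1 for 2 µM against DMSO at 8 h, and DESeq2 called 0.

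The rest did not pass with R1881 in LAPC4. For CCND3 at 22 h (0.22 ± 0.080, adjusted p = 0.061) the call depended on the fit, and it passed with the edgeR default filter (adjusted p = 0.0477) and in a fit of only the groups compared (adjusted p = 0.0244). CDKN1B at 22 h was -0.08 (adjusted p = 0.0747), and it passed with upper quartile factors (-0.10, adjusted p = 0.0116). With 500 nM against R1881 at 22 h CDKN1B was 0.11 (adjusted p = 0.0605). That value passed with DESeq2 (adjusted p = 0.0397) and with upper quartile factors (adjusted p = 0.0204). CDKN1A had 2.4, 2.69 and 3.03 CPM with DMSO and 2.09, 2.65 and 3.17 CPM with R1881 at 22 h (0.01, 95% interval -0.21 to 0.22). CDKN1C had 0.555, 1.04 and 1.16 CPM and 0.512, 0.96 and 1.38 CPM (95% interval -0.36 to 0.35). In the same order at 22 h, CDKN2C had 27.6, 29.1 and 29.8 CPM and 24.7, 27.4 and 31.5 CPM. CDKN2D had 7.15, 7.99 and 8.77 CPM and 5.93, 8.17 and 9.37 CPM. CDKN2A at 8 h had 0.427, 0.69 and 1.18 CPM with DMSO and 0.3, 0.487 and 0.759 CPM with R1881, a log2 fold change of -0.56 ± 0.18 with an adjusted p of 0.0971. CDKN2C at 8 h was -0.14 (adjusted p = 0.0768). Both passed with a principal component as covariate (adjusted p = 0.0169 for CDKN2A and 0.000525 for CDKN2C).

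The R1881 effect differed between VCaP and LAPC4 for 9 of 9 members at 22 h (68.5% of all genes) and for 8 at 8 h (58.5%). At 22 h the VCaP effect was above the LAPC4 effect by 1.97 ± 0.12 for CDKN1A, 1.98 ± 0.18 for CDKN2B, 0.98 ± 0.10 for CCND3, 0.94 ± 0.19 for CDKN1C, 0.91 ± 0.15 for CDKN2D and 0.70 ± 0.031 for CCND1. It was below it by -2.23 ± 0.30 for CDKN2A, -1.12 ± 0.083 for CDKN2C and -0.32 ± 0.044 for CDKN1B. At 8 h the difference for CDKN2C was -0.24 (adjusted p = 0.00595), and -0.11 (adjusted p = 0.35) with no filter on low counts. For CDKN1B at 8 h it was 0.12 (adjusted p = 0.0061), and 0.08 (adjusted p = 0.092) with upper quartile factors. For CCND1 at 8 h it was 0.13 (adjusted p = 5.77e-05), and 0.06 (adjusted p = 0.131) with library totals alone.

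CDKN2B thus rose with R1881 in VCaP and fell in LAPC4 at 22 h, where its call was lost in the settings given above. CCND1 rose in both at 22 h. CDKN2A at 8 h was the exception to the differences between the lines. Its effects of -0.59 in VCaP and -0.56 in LAPC4 differed in the joint fit by -0.12 (95% interval -0.61 to 0.38, adjusted p = 0.717), an interval that leaves room for a sizeable difference. The effect of 2 µM darolutamide at 22 h differed between the lines for 8 of 9 members (58.9%), all but CDKN2D (-0.08, 95% interval -0.40 to 0.23). The smallest of these, -0.11 for CDKN1B (adjusted p = 0.0452), was -0.08 (adjusted p = 0.157) with upper quartile factors, -0.02 (adjusted p = 0.719) with library totals alone and -0.12 (adjusted p = 0.0968) with no filter.

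Of 27 genes of the G1 machinery (CDKs, E-type and A-type cyclins, retinoblastoma proteins, E2F factors and regulators of their turnover), all were tested in both lines. With R1881 in VCaP at 22 h 14 rose and 12 fell, where 37.4% of all genes rose and 40% fell, with a median log2 fold change of 0.17 beside -0.03 over all genes. CDK6, which pairs with D-type cyclins, rose by 1.34 ± 0.15, and CDK4, its relative, fell by 0.45 on the log2 scale. Their levels were far apart, with 4 to 194 reads (median 39) for CDK6 over the VCaP libraries and 1829 to 6575 (median 3250) for CDK4. E2F1, an activator of S phase genes, rose by 1.37 ± 0.077, and CDC25A, the phosphatase that activates CDK2, by 0.92 ± 0.046. SKP2, which marks p27 for degradation, fell by 0.67 and CCNH, a subunit of the CDK-activating kinase, by 1.53. AMBRA1, which targets D-type cyclins for degradation, rose by 0.52 ± 0.054.

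With 2 µM darolutamide against R1881 at 22 h, 21 of the 27 rose and 5 fell in VCaP (36.1% and 30.8% of all genes, median 0.62 beside 0.06 over all genes). Against DMSO 22 rose and 3 fell (30.5% and 28.5% of all genes, median 0.56 beside 0.01). CCNE2 (cyclin E2) was higher by 1.22 ± 0.055 against R1881 and by 1.75 ± 0.057 against DMSO. CDK4 was higher by 1.11 ± 0.037 and 0.66 ± 0.039, and E2F1 by 0.84 ± 0.078 and 2.21 ± 0.084. CDK6 was lower than with R1881 (-0.78 ± 0.16) and RB1, the retinoblastoma gene, was lower as well (-0.54 ± 0.052).

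In LAPC4 10 of the 27 rose and 1 fell with R1881 at 22 h (6.83% and 6.45% of all genes, median 0.05 beside 0.01). With 2 µM darolutamide against R1881 none rose and 7 fell (5% and 5.47% of all genes, median -0.05 beside 0.00052). E2F7, a repressive E2F, moved by 0.48 ± 0.062 with R1881 and by -0.43 ± 0.070 with 2 µM darolutamide. CDK2 moved by 0.12 ± 0.024 and -0.13 ± 0.027.

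The 12 proliferation genes were all higher in VCaP with 2 µM darolutamide at 22 h, against R1881 (36.1% of all genes, median 1.01 beside 0.06) and against DMSO (30.5%, median 1.27 beside 0.01). Their summed level was 2076 to 2318 CPM with DMSO, 1712 to 1848 CPM with R1881, 3595 to 3715 CPM with 500 nM and 3605 to 3849 CPM with 2 µM, with no overlap except between the doses. With R1881 6 rose and 5 fell (37.4% and 40% of all genes), PCNA, the sliding clamp of DNA replication, by 0.49 ± 0.027 and TOP2A, the mitotic topoisomerase, by -0.79 ± 0.044. In LAPC4 8 of the 12 rose with R1881 at 22 h (6.83% of all genes, median 0.22 beside 0.01) and none fell, with MCM4 and MCM3 of the replicative helicase at 0.28 ± 0.026 and 0.22 ± 0.025, and 6 fell with 2 µM darolutamide against R1881 (5.47%, median -0.17 beside 0.00052) and none rose.

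Of 14 p53 targets other than CDKN1A, 4 rose and 7 fell in VCaP with R1881 at 22 h, with a median of -0.30 beside -0.03 over all genes, of which 37.4% rose and 40% fell. The count called, 11 of 14, was near the share of all genes called (77.4%). SESN1, a stress-responsive sestrin, fell by 1.97 and BTG2, an antiproliferative factor, by 0.61, beside the rise of 2.03 for CDKN1A. In LAPC4 13 of the 14 were tested (13.3% of all genes were called there) and 1 rose (TNFRSF10B, a death receptor, by 0.22 ± 0.022) and 1 fell (SESN1, by 0.42).

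The genes with the patterns most like those of the members were sought over the 8 group means of a line, for the pair of members that moved most there. For VCaP CDKN2A these were RPS21 (Pearson r = 0.997), RP1-182O16.1 and NAP1L1, and for VCaP CDKN1A they were CDK9 (0.998), TXNDC11 and CH17-385C13.2. Over 0.95 there were 512 genes for CDKN2A and 318 for CDKN1A. For LAPC4 CCND1 they included C12orf65 (0.991) and SIRPA (0.991) among 83 genes, and for LAPC4 CDKN2B they were FAM81B (0.970), LDHAP4 and RPL7P9 among 10. The points of each correlation share their libraries and their depth.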

How the data were processed

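RNA had been sequenced from VCaP and LAPC4 cells as single-end reads of 50 bases (stranded kit). Per the labels, the authors used STAR and featureCounts on GRCh38, and the deposited values are raw counts per gene. The strand setting of the counting and the annotation release are not given in the sources used here. Where no strand was used, reads of a gene and its antisense partner cannot be told apart, which concerns CDKN1A, CDKN1B, CDKN2A, CDKN2B, CDKN2C, CCND1 and CCND3. Depth ran from 12188455 to 25201678 counts a library, and for low members such as CDKN2A it limits the precision.

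The 8 groups of a line were fitted together with edgeR 4.0.16 in R 4.3.3 (TMM factors, quasi-likelihood test, Benjamini-Hochberg adjustment over all tested genes, threshold 0.05) after a filter of at least 10 reads in at least 4 libraries, which left 19266 genes in VCaP and 18204 in LAPC4. Lines were compared in a joint fit of all libraries over 16578 genes. CPM use the joint TMM factors, so a ratio of CPM means can differ slightly from a fitted fold change. The standard error is the fold change over the root of the test statistic, and intervals are at 95%. The scripts were tested on simulated data. Coordinates and exon lengths are from GENCODE on GRCh38, and promoters from RefSeq.

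The members and lists were chosen with earlier results of these data known. The 10 members are always named, as may be any G1 partner. Of the proliferation and p53 lists the 2 genes with the smallest adjusted p for R1881 at 22 h were named in each line. For the 2 members of each line with the largest change, the 3 genes with the most similar pattern (Pearson r over 8 group means of log2 CPM, prior count 2) were named. Some genes that these rules or the marker lists would name are not reported here. Alternatives were DESeq2 1.42.0, upper quartile factors, other filters, only the groups compared, a replicate block, subsets of controls, a principal component as covariate, and leaving out each darolutamide library. Once the data had been seen, upper quartile factors and library totals alone were added for the joint fit. The study describes 5 biological replicates per condition, while the DMSO and R1881 groups here hold 7 to 10 libraries. Whether the further libraries came from separate cultures is not given in the sources used here, so in those groups the spread may be technical in part.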

Additional observations from a re-analysis of the deposited data

Results flagged for a closer look

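Of 144 groups of 4 to 10 libraries, 5 held a library far from the others by Dixon's criterion, and chance flags about 1 in 20 groups. In VCaP, CDKN2A with DMSO at 8 h was 2.46 CPM in replicate 4 (nearest 1.9 CPM) and CCND1 with R1881 at 22 h was 480 CPM in replicate 1 (nearest 491 CPM). In LAPC4, CDKN1A with R1881 at 8 h was 4.71 CPM in replicate 5 (nearest 3.5 CPM), CDKN1C with DMSO at 22 h was 0.555 CPM in replicate 4 (nearest 0.915 CPM), and CDKN2A with 500 nM darolutamide at 22 h was 0.597 CPM in replicate 4 (nearest 0.994 CPM).

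The effect of R1881 differed between 22 h and 8 h in VCaP (log2 scale, 22 h minus 8 h) by 1.03 for CDKN1A, -0.49 for CDKN1B, -0.40 for CDKN1C, -1.73 for CDKN2A, 0.95 for CDKN2B, -0.81 for CDKN2C, 0.78 for CCND1 and 0.52 for CCND3. In LAPC4 it differed by 0.23 for CCND1.

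Between the lines (VCaP minus LAPC4) the R1881 effect at 8 h differed by 0.85 for CDKN1A, 0.12 for CDKN1B, 1.32 for CDKN1C, 0.81 for CDKN2B, -0.24 for CDKN2C, 0.85 for CDKN2D, 0.13 for CCND1 and 0.64 for CCND3. At 22 h it differed by 1.97 for CDKN1A, -0.32 for CDKN1B, 0.94 for CDKN1C, -2.23 for CDKN2A, 1.98 for CDKN2B, -1.12 for CDKN2C, 0.91 for CDKN2D, 0.70 for CCND1 and 0.98 for CCND3. The effect of 2 µM darolutamide against R1881 at 22 h differed by -1.74 for CDKN1A, -0.11 for CDKN1B, -1.56 for CDKN1C, 1.65 for CDKN2A, -2.17 for CDKN2B, 0.86 for CDKN2C, -0.28 for CCND1 and -0.40 for CCND3. Each of these differences passed the edgeR test of the difference itself. With other settings of the joint fit the calls for CDKN1B, CDKN2C and CCND1 at 8 h and for CDKN1B under darolutamide were lost, with the values given above.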

How the results depend on the processing

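Over all members and alternatives, no fold change that passed the test reversed. In 74 cases the call was lost and in 38 gained, while 2796 kept direction and call, and 125 values that passed in neither changed sign. Upper quartile factors and library totals alone for the comparisons between the lines were chosen after seeing the data. The number of members called moved by more than 1.5 times as follows. With the replicate block it was 2 in place of 4 for 500 nM against R1881 at 8 h in VCaP, 1 in place of 3 between the doses at 8 h in VCaP, and 0 in place of 1 for 2 µM against R1881 at 8 h in LAPC4. Whether replicate numbers mark paired libraries is not given in the labels. Deviations of same-numbered libraries correlated by -0.00511 on average over 149 pairs in VCaP and by 0.0549 over 161 pairs in LAPC4. For libraries of other numbers the means were 0.000668 and -0.00717. The correlation was over 0.1 for 33 of the VCaP pairs and 57 of the LAPC4 pairs, and a mean cannot exclude that some libraries were paired. In LAPC4, a principal component as covariate gave 2 in place of 0 for R1881 at 8 h, 4 in place of 2 at 22 h, 3 in place of 1 for 500 nM at 22 h, 5 in place of 3 for time in DMSO and 2 in place of 1 for the difference between times. No filter gave 1 for R1881 at 22 h and 0 for 2 µM at 8 h. Control replicates 1 to 5 gave 1 for R1881 and 1 for 2 µM at 22 h. Control replicates 6 and above gave 1 for R1881 at 22 h, 0 and 1 for 2 µM at 8 and 22 h, 1 for time in DMSO and 0 for the difference between times. Only the groups compared gave 0 and 1 for 2 µM at 8 and 22 h, and DESeq2 and upper quartile factors each gave 2 for 500 nM at 22 h. Smaller moves in VCaP gave 7 to 9 in place of 9 for R1881 at 8 h, 6 to 8 in place of 8 for 500 nM at 22 h and 7 to 8 in place of 8 for the difference between times. They also gave 5 to 7 in place of 5 and 7 to 8 in place of 7 for 2 µM against R1881 at 8 and 22 h. For 2 µM against DMSO they gave 4 to 6 in place of 5 and 5 to 7 in place of 6. For 500 nM at 8 h they gave up to 5 in place of 4, between the doses at 22 h 3 to 4 in place of 4, and for time in DMSO 3 to 5 in place of 4. Between the lines they gave 6 to 8 in place of 8 for R1881 at 8 h, 7 to 8 in place of 8 for 2 µM, and 8 to 9 in place of 9 for DMSO at 8 h. For LAPC4 CCND3 the replicate block gave 0.25 (adjusted p = 0.00675) for R1881 at 22 h, -0.20 (adjusted p = 0.0225) for 2 µM and -0.20 (adjusted p = 0.1) for time in DMSO.

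Leaving out each darolutamide library in turn gave, in VCaP, 5 to 6 and 7 to 8 members for 2 µM against R1881 at 8 and 22 h, 3 to 4 and 7 to 8 for 500 nM, 2 to 3 and 2 to 4 between the doses, and 5 and 6 to 7 for 2 µM against DMSO. In LAPC4 it gave 0 to 1 and 1 to 2 for 2 µM against R1881 and 1 to 2 for 500 nM at 22 h. The cause of these changes was not tested. Depth limits CDKN2A most, with 1 to 10 reads a library in VCaP with R1881 at 22 h.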
